A study of Mus musculus with 4 samples.

Results

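The stem cell heptad is a group of 7 transcription factors, Gata2, Tal1, Lyl1, Lmo2, Runx1, Erg and Fli1, that bind together at enhancers of blood stem and progenitor cells. Cbfb, Mecom and Gfi1, which act beside them in the same cells, were added to the group, so that it holds 10 genes. They were chosen by symbol, by a rule that uses no measured value, though with earlier results of these data known. All 10 were found among the 20207 genes of the deposited table. The labels describe 2 samples per genotype, of LSK cells from livers of Brpf1-null and of wildtype mouse embryos at E14.5, each with about 10000 sorted cells pooled from 4 embryos. LSK cells lack lineage markers and carry Sca-1 and Kit, a fraction in which blood stem cells and multipotent progenitors are found, and Brpf1 encodes a chromatin reader of histone acetyltransferase complexes. The sources used here give neither the strain nor the promoter or Cre that removed Brpf1. The tables of both pairs held the same values for every gene, so they give 1 set of values per genotype. Whether these come from 1 of the pairs or merge the reads of both is not known; they are called the Brpf1-null library and the wild-type library here. No difference below has a replicate check or a p-value.

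GATA2 is a zinc finger factor that binds GATA motifs, and TAL1 and LYL1 are related basic helix-loop-helix factors that bind E-boxes with an E protein partner. LMO2 does not bind DNA itself and bridges GATA and helix-loop-helix factors through the adaptor LDB1. ERG and FLI1 are related ETS factors, and RUNX1 binds DNA with CBFB, which raises its affinity. In mice, blood stem cells do not form without Tal1, Lmo2, Runx1 or Gata2, and stem cells are not maintained without Mecom or Erg.

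The largest difference in the group was at Mecom, which was 4.14-fold lower in the Brpf1-null library than in the wild-type library. Erg, Gfi1 and Tal1 were 1.62 to 1.88-fold lower, Gata2 was 1.23-fold lower, and Lmo2, Runx1, Fli1, Cbfb and Lyl1 differed by at most 1.17-fold. Levels are in RPKM, reads scaled by gene length and by the mapped reads of the library, and folds are ratios of RPKM. Brackets after a fold or ratio hold the 95% counting interval, from read numbers estimated at the length of the shortest RefSeq-linked transcript. It covers counting error only, takes reads as independent although PCR copies are not, and says nothing of the spread between pools. The Brpf1-null library held about 22221000 reads and the wild-type library about 23587600, as recovered from the spacing of low values. Brpf1 itself was at 2.15 RPKM in the Brpf1-null library and 2.59 RPKM in the wild-type library, a ratio of 0.833 (0.693 to 1.004). At its longest RefSeq-linked length the interval would be 0.699 to 0.994, so whether it includes 1 depends on the length. These are values over the gene as a whole, the deleted part is not given in the sources, and loss of Brpf1 was not shown by them.

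**Figure D1:**
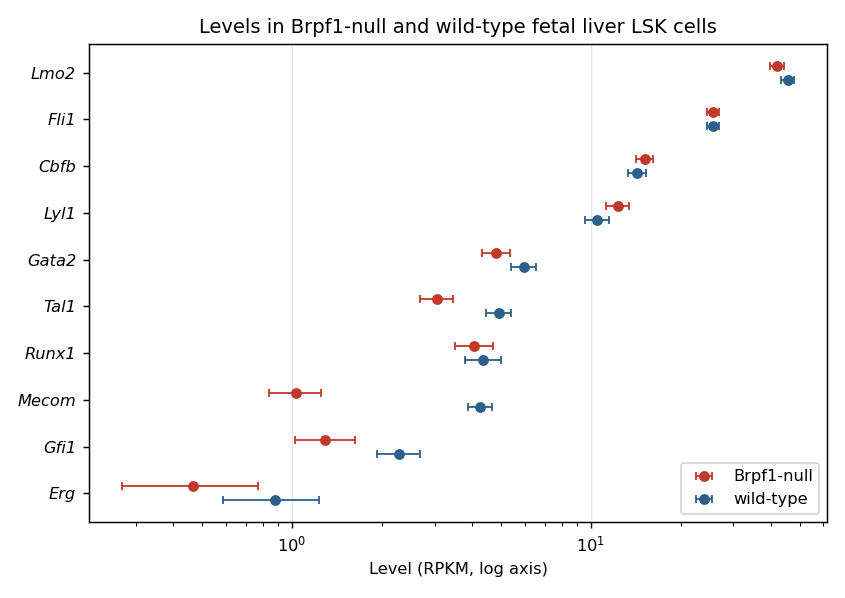
Level of each of the 10 factors in RPKM on a log axis, in the Brpf1-null library (red) and the wild-type library (blue), 1 library each; bars are 95% counting intervals. Lmo2 is highest in both libraries, at 41.9 RPKM in Brpf1-null and 45.5 RPKM in wild-type, and Mecom shows the widest gap, at 1.03 RPKM in Brpf1-null and 4.26 RPKM in wild-type.

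Tal1 and Lyl1, the paired helix-loop-helix genes, did not differ alike between the libraries. Tal1 was at 3.05 RPKM in the Brpf1-null library and 4.93 RPKM in the wild-type library, with about 251 Brpf1-null and 430 wild-type reads, and so 1.62-fold lower (1.38 to 1.89). Lyl1, which can partly stand in for Tal1 in adult mouse stem cells, was at 12.3 RPKM in the Brpf1-null library and 10.5 RPKM in the wild-type library, 1.17-fold higher (1.03 to 1.34), with about 492 Brpf1-null and 445 wild-type reads. On the log2 scale with a pseudocount of 1 RPKM, Lyl1 was 0.21 higher, and this was 0.00 once a trend of the change on GC content was removed. Tal1 stayed between −0.69 and −0.30 under the alternatives that keep it, which leaves out the filter at a mean of 5 RPKM. Tal1 stood at 24.8% of the Lyl1 level in the Brpf1-null library and at 47.1% in the wild-type library.

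The RefSeq promoter table held windows for 8 of the 10 genes, 15 in all, and 5 of these overlapped an annotated exon. Both Tal1 windows and the Lyl1 window are shown because this related pair differed between the libraries in unlike ways. Each runs 250 bases up to the base before an annotated start, 5′ to 3′ on the gene's strand in build GRCm38.p6. The first Tal1 window is chr4:115056176-115056425 on the plus strand, outside any annotated transcript, and the second is chr4:115057561-115057810 on the plus strand, intronic to Tal1 transcripts that begin upstream. The Lyl1 window is chr8:84701207-84701456 on the plus strand, with no annotated exon and inside the span of a transcript of Nfix. Capitals mark 6-letter words on either strand: for GATA factors AGATAA or AGATAG, as well as TGATAA or TGATAG; for E-boxes CAGATG or CAGCTG; for ETS factors AGGAAG or CGGAAG; and for RUNX factors TGTGGT or TGCGGT.
Tal1, first start: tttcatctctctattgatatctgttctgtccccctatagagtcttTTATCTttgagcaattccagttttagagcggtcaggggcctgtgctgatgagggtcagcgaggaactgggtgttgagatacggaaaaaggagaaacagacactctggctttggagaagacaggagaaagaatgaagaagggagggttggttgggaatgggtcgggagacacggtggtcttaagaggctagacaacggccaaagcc
Tal1, second start: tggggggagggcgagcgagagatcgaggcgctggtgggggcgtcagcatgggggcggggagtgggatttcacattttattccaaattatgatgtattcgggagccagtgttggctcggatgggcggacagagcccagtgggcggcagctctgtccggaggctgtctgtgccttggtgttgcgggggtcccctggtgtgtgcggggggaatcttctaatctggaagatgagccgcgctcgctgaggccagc
Lyl1: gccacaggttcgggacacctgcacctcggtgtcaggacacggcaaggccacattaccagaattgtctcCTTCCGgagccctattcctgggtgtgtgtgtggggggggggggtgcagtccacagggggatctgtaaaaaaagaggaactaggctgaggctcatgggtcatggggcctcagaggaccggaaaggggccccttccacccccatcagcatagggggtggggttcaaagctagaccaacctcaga
The first Tal1 window held 1 GATA word and 0 of the other kinds, and the second held 0 words of any kind. The Lyl1 window held 1 ETS word and 0 of the other kinds. The Tal1 and Lyl1 words were read on the opposite strand. Over the 15 windows of these genes, GATA words were in 4 (26.7%), against 26.5% of 32851 windows of all genes. ETS words were in 6 (40%), against 39.2% of all windows, E-box words in 1 (6.67%), against 25.5%, and RUNX words in 0, against 18.6%. No 2 matches overlapped in these windows. A match is a description of letters and not a bound site.

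Lmo2, the bridge of the complex, had the highest RPKM of the 10 genes in both libraries. It was at 41.9 RPKM in the Brpf1-null library and 45.5 RPKM in the wild-type library. That is 1.09-fold lower (1.01 to 1.17), with about 1425 Brpf1-null and 1642 wild-type reads. Lmo2 made up 45.5% of the summed heptad RPKM in the Brpf1-null library and 46.6% in the wild-type library, and with Fli1 it set most of that sum, which was 92.2 RPKM in Brpf1-null and 97.7 RPKM in wild-type. The sum therefore says little about the low members Erg and Tal1.

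Gata2, which sustains stem cell survival and is the GATA factor of progenitors before Gata1 takes over in red cell precursors, was at 4.83 RPKM in the Brpf1-null library and 5.96 RPKM in the wild-type library. Gata2 was thus lower by 1.23-fold (1.07 to 1.42), with about 337 Brpf1-null and 441 wild-type reads. Its log2 change with the pseudocount was −0.26, at position 2343 from the lowest among the 9380 genes whose mean was 1 RPKM or more. Under the alternatives run it lay between −0.47 and −0.16.

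The ETS factors were far apart in level and in difference. Fli1, which is also a megakaryocyte and endothelial factor, was at 25.6 RPKM in both libraries (25.58 in Brpf1-null and 25.63 in wild-type), a ratio of 0.998 (0.937 to 1.06). With about 1886 Brpf1-null and 2006 wild-type reads, its interval was the narrowest of the 10. Its log2 change of −0.00 was −0.11 once both libraries were centred on their medians and 0.12 once the GC trend was removed. Erg, which is needed for stem cell self-renewal in mice, was at 0.467 RPKM in the Brpf1-null library and 0.878 RPKM in the wild-type library, 1.88-fold lower (0.968 to 3.57). That rests on about 16 Brpf1-null and 31 wild-type reads, and a difference was not detectable at this depth if the gene is read at its shortest RefSeq-linked length of 1519 bases. At its longest, 3249 bases, the reads would be about 34 Brpf1-null and 67 wild-type ones and the interval 1.21 to 2.89. Erg was the only 1 of the 10 under a mean of 1 RPKM, and it stood at 1.83% of the Fli1 level in the Brpf1-null library and 3.43% in the wild-type library.

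Erg and Gfi1 have several annotated starts, and the RPKM values add reads over all of them and cannot say which start differed. For each gene the 1 exon-free window that holds a listed word is shown, so the choice of windows rests on the words. The Erg window is chr16:95459349-95459598 on the minus strand, intronic to Erg transcripts that begin upstream. The Gfi1 window is chr5:107724344-107724593 on the minus strand, intronic to longer Gfi1 transcripts. Capitals mark the same 6-letter words.
Erg: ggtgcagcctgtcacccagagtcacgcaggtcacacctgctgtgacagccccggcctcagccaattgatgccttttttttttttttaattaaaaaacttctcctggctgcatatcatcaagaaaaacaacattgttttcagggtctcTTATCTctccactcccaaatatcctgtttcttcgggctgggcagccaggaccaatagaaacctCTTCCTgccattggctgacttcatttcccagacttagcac
Gfi1: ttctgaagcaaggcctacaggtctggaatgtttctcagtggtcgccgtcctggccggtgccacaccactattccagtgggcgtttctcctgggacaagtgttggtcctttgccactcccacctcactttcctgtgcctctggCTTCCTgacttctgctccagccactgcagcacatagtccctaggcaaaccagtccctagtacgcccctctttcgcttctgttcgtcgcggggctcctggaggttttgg
The Erg window held 1 GATA word and 1 ETS word, and the Gfi1 window 1 ETS word. The other 2 Erg windows, chr16:95530366-95530615 and chr16:95586594-95586843, held 0 words of any kind, as did the other Gfi1 window, which overlaps an exon.

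RUNX1 and CBFB form the core binding factor. Runx1 was at 4.08 RPKM in the Brpf1-null library and 4.35 RPKM in the wild-type library, a ratio of 0.937 (0.762 to 1.15), from about 180 Brpf1-null and 204 wild-type reads. Cbfb was at 15.1 RPKM in the Brpf1-null library and 14.3 RPKM in the wild-type library, a ratio of 1.06 (0.961 to 1.17), from about 836 Brpf1-null and 838 wild-type reads; its log2 change of 0.08 was −0.03 after centring and 0.26 after removal of the GC trend. Neither difference was detectable at this depth. Runx1 stood at 27.0% of the Cbfb level in the Brpf1-null library and 30.5% in the wild-type library.

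**Figure D2:**
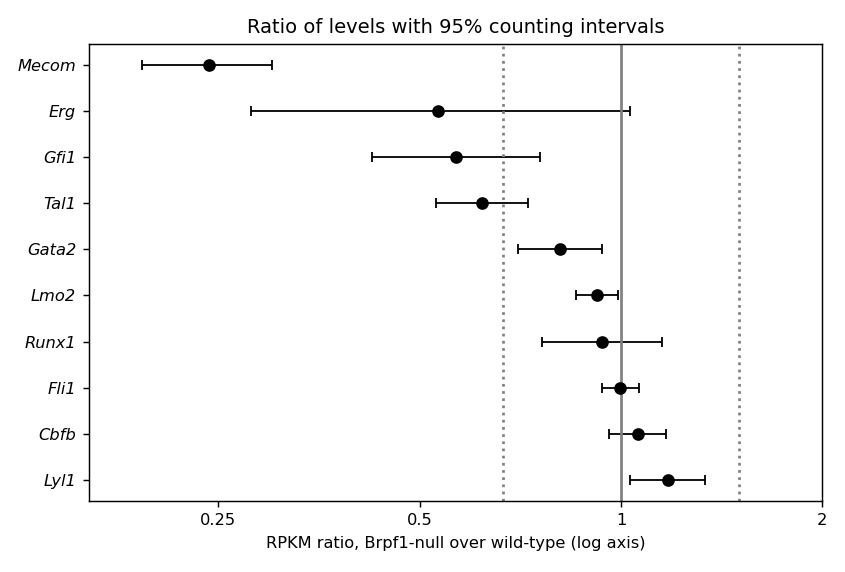
Ratio of RPKM, Brpf1-null over wild-type, for each of the 10 factors on a log axis, with 95% counting intervals; dotted lines mark 1.5-fold either way. Mecom lies at 0.242, Erg, Gfi1 and Tal1 lie between 0.532 and 0.619, and the interval of Erg crosses 1.

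Mecom encodes EVI1 and the longer MDS1-EVI1 protein, a PR-domain zinc finger factor that long-term mouse stem cells need. It was at 1.03 RPKM in the Brpf1-null library and 4.26 RPKM in the wild-type library. At the length of its RefSeq-linked transcript, 4381 bases, these are about 100 Brpf1-null and 440 wild-type reads and the fold of 4.14 has an interval of 3.33 to 5.203. At the shortest annotated coding transcript, 348 bases, they would be about 8 Brpf1-null and 35 wild-type reads with an interval of 1.88 to 10.3, which also excludes 1. Its log2 change with the pseudocount was −1.37, and 164 of the 9380 genes (1.75%) had a lower one. The change ran from −2.05 without a pseudocount to −0.62 with one of 5 RPKM. A value per gene does not separate EVI1 from MDS1-EVI1 starts.

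Gfi1, a zinc finger repressor that restrains stem cell cycling and is needed for neutrophils in mice, was at 1.29 RPKM in the Brpf1-null library and 2.27 RPKM in the wild-type library. Gfi1 was thus lower by 1.76-fold (1.32 to 2.36), with about 76 Brpf1-null and 142 wild-type reads. Its log2 change with the pseudocount was −0.52, which the pseudocount pulls toward 0 at this level. GENCODE annotates genes on the opposite strand that share exon bases with Lyl1 (4 bases), Mecom (81), Gfi1 (101) and Runx1 (106). The sources used here do not say whether reads were counted by strand, so reads from those bases cannot be assigned to 1 strand.

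Read as a count, 4 of the 10 genes had an RPKM ratio past 1.5-fold lower in Brpf1-null cells (Mecom, Erg, Gfi1 and Tal1) and 0 past 1.5-fold higher. Over the 14228 genes above 0 in at least 1 library, 23.3% were lower and 23.8% higher by that rule. Among the 9380 genes averaging 1 RPKM or more, 12.8% were lower and 19.2% higher. Of the 9 factors in that set, which leaves out Erg, 3 were lower and 0 higher. With the pseudocount of 1 RPKM, 1 of the 10 was past 1.5-fold lower (Mecom) and 0 higher, against 7.59% lower and 10.1% higher over the 14228 genes. Over the 9380 genes averaging 1 RPKM or more those shares were 9.42% and 14.1%. One member in 10 is close to these shares, so the count with the pseudocount is not a result about the group. The median log2 change of the 10 was −0.19, against 0.01 over the 14228 genes. The median log2 ratio without a pseudocount was −0.21, against 0.04 over the 12624 genes above 0 in both libraries. Counting intervals excluded a ratio of 1 for 5 genes on the lower side (Mecom, Gfi1, Tal1, Gata2 and Lmo2), 1 on the higher side (Lyl1), and included 1 for 4. Over the 13977 genes above 0 in at least 1 library and with a length, the interval excluded 1 for 29.7% on the lower side and 31.7% on the higher side, and over the 9258 of them averaging 1 RPKM or more for 31.7% and 39.3%, so an interval that excludes 1 was common among all genes. At the shortest annotated coding transcript, the intervals of Gata2 (0.824 to 1.86), Lmo2 (0.955 to 1.24) and Gfi1 (0.986 to 3.17), as folds lower, would include 1.

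**Figure D3:**
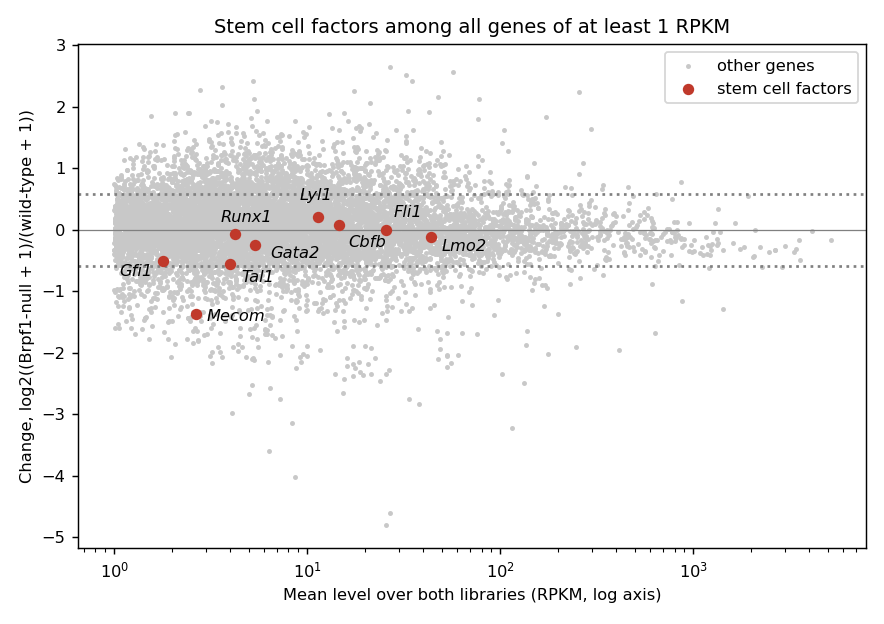
Log2 change with a pseudocount of 1 RPKM against the mean level in RPKM, for 9380 genes averaging 1 RPKM or more (grey) and the 9 of the 10 factors among them (red, named); dotted lines mark 1.5-fold. Mecom, at −1.37, is the only red point outside the dotted lines, and Erg is not plotted because its mean is under 1 RPKM.

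In order of level, the first 5 genes were the same in both libraries: Lmo2, Fli1, Cbfb, Lyl1 and Gata2. In the Brpf1-null library they were followed by Runx1, Tal1, Gfi1, Mecom and Erg, and in the wild-type library by Tal1, Runx1, Mecom, Gfi1 and Erg. Neighbours whose counting intervals overlapped were Gata2 and Runx1, and Gfi1 and Mecom, in the Brpf1-null library, and Tal1 and Runx1, and Runx1 and Mecom, in the wild-type library. The interval of Mecom thus overlapped that of Gfi1 in the Brpf1-null library and that of Runx1 in the wild-type library. Levels of different genes also depend on the length each gene was scaled by. The sources used here do not give these lengths and the intervals do not cover them, so the order is a description of RPKM values. The highest gene was 89.7 times the lowest in the Brpf1-null library and 51.8 times in the wild-type library, since Erg was the lowest in both.

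**Figure D4:**
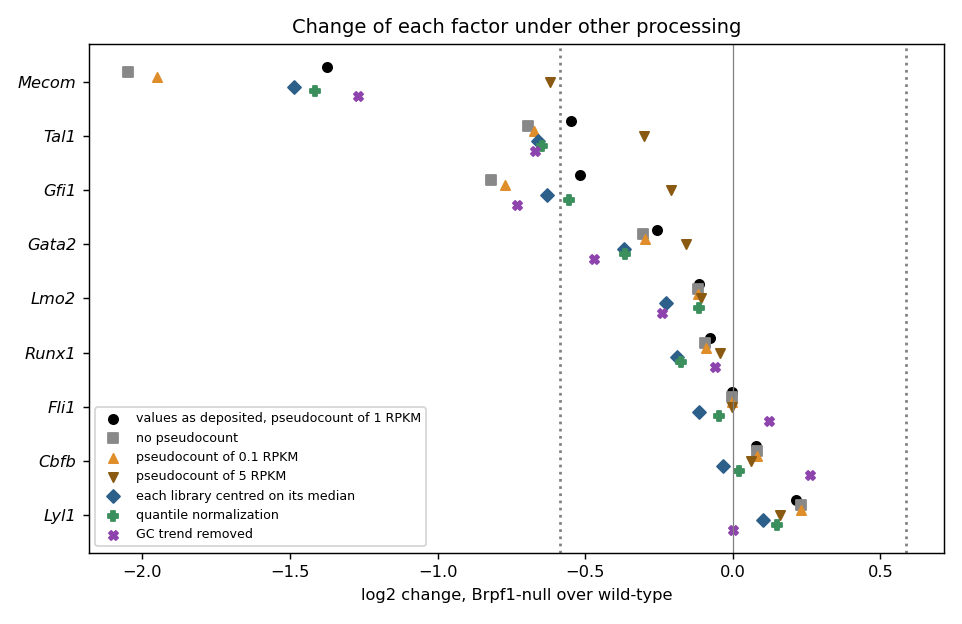
Log2 change of the 9 factors averaging 1 RPKM or more, Brpf1-null over wild-type, under 7 ways of processing; dotted lines mark 1.5-fold. Mecom is past the line in all 7, Tal1 in 5 and Gfi1 in 4, while Fli1 and Cbfb fall on both sides of 0.

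The cofactors of the LMO2 complex mostly lay within 1.5-fold, as did most of all genes, so this is not a result about the complex. Of 10 listed LDB1-complex cofactors and E proteins, 8 averaged 1 RPKM or more. With the pseudocount, 1 of these 8 was past 1.5-fold lower, 0 were higher and 7 lay within 1.5-fold. Over all 9380 genes, 9.42% were past 1.5-fold lower and 14.1% higher. The number of lower cofactors was 2 after centring and 0 at a mean of at least 5 RPKM. The median log2 change of the 8 was −0.20, against 0.04 over all 9380 genes. The lower gene was Runx1t1, which encodes the corepressor ETO, at 0.508 RPKM in the Brpf1-null library and 3.29 RPKM in the wild-type library, 6.46-fold lower (4.62 to 9.50). Ldb1, the adaptor that LMO2 binds, was at 30.2 RPKM in the Brpf1-null library and 20.2 RPKM in the wild-type library, a ratio of 1.496 (1.38 to 1.62). The LDB1-binding proteins Ssbp2 and Ssbp3 stood on opposite sides: Ssbp2 was at 40.7 RPKM in Brpf1-null and 57.9 RPKM in wild-type, and Ssbp3 at 28.6 RPKM in Brpf1-null and 21.7 RPKM in wild-type.

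Among 12 paralogs of the factors, 10 averaged 1 RPKM or more, with a median log2 change of −0.30. With the pseudocount, 5 of these 10 were past 1.5-fold lower and 1 higher, against 9.42% lower and 14.1% higher over the 9380 genes. Their median was −1.14 at a mean of at least 5 RPKM, where fewer of them are kept. Tal2 and Fev were listed at 0 in both libraries. Ets1, an ETS factor of lymphoid cells, was at 2.44 RPKM in the Brpf1-null library and 9.59 RPKM in the wild-type library, 3.94-fold lower (3.18 to 4.91). Gata1, the red cell and megakaryocyte GATA factor, was at 6.125 RPKM in Brpf1-null and 16.75 RPKM in wild-type, 2.73-fold lower (2.37 to 3.16). Lmo4 was 2.35-fold lower (2.04 to 2.71). Gfi1b, the red cell and megakaryocyte relative of Gfi1, was at 25.2 RPKM in Brpf1-null and 47.1 RPKM in wild-type, 1.87-fold lower (1.73 to 2.02). The remaining lower gene was Gata3 and the higher one Lmo1, both named after their values were seen, and Lmo1 lay within 1.5-fold after centring, quantile normalization or removal of the GC trend.

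The 10 corepressor genes that GFI1, EVI1 or RUNX1 recruit all lay within 1.5-fold with the pseudocount. By that rule 9.42% of the 9380 genes were lower and 14.1% higher. The median log2 change of the 10 was 0.19, and 2 of them were lower by any amount. With a pseudocount of 0.1 RPKM or none, 1 of the 10 was past 1.5-fold higher. Ctbp2, a partner of EVI1, was at 14.53 RPKM in Brpf1-null and 10.74 RPKM in wild-type, and Kdm1, the listed symbol of the histone demethylase gene Kdm1a that GFI1 binds, at 14.0 RPKM in Brpf1-null and 11.4 RPKM in wild-type. Tle1 was at 1.35 RPKM in Brpf1-null and 0.842 RPKM in wild-type, and Tle3 at 4.69 RPKM in Brpf1-null and 3.64 RPKM in wild-type. Ratios were 1.35 (1.21 to 1.51) for Ctbp2 and 1.23 (1.12 to 1.35) for Kdm1. Those of Tle1 and Tle3 were 1.60 (1.06 to 2.44) and 1.29 (1.10 to 1.51). Of 13 genes with elements bound by heptad factors in mouse blood cells, 12 averaged 1 RPKM or more, with a median of −0.19. Of these 12, 3 were higher, 3 lower and 6 within 1.5-fold, against 14.1% higher and 9.42% lower over the 9380 genes. The split depended on the processing: 2 were higher and 5 lower after removal of the GC trend, and 2 higher and 4 lower after centring. The 12 went both ways: Csf1r was 3.47-fold higher (3.19 to 3.76) and Meis1 2.59-fold lower (2.43 to 2.77). Sfpi1, the listed symbol of Spi1, which encodes PU.1, was at 2.46 RPKM in Brpf1-null and 4.63 RPKM in wild-type, 1.88-fold lower (1.49 to 2.39).

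**Figure D5:**
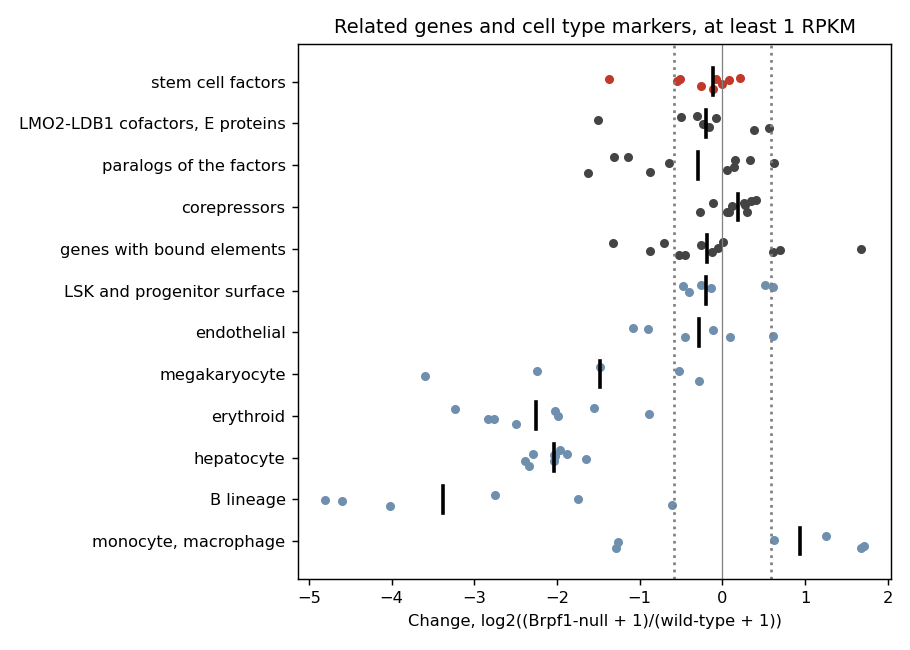
Log2 change with a pseudocount of 1 RPKM for genes averaging 1 RPKM or more, by list: the factors (red), related genes (dark grey) and cell type markers (blue), 1 point per gene with the median as a black bar; dotted lines mark 1.5-fold. The medians of the erythroid and hepatocyte markers lie at −2.26 and −2.03, and that of the factors at −0.12.

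Red cells, megakaryocytes, mast cells and endothelial cells also transcribe several of these factors, so their markers are given beside the factors. Counts of lower and higher markers, here and for the cells that follow, are past 1.5-fold with the pseudocount. By that rule 9.42% of the 9380 genes were lower and 14.1% higher. Of 8 erythroid markers, 8 were past 1.5-fold lower, and their summed level was 87.5 RPKM in the Brpf1-null library and 601 RPKM in the wild-type library. Of 7 megakaryocyte markers, 5 averaged 1 RPKM or more and 3 of these were lower. The 7 summed to 62.7 RPKM in Brpf1-null and 124 RPKM in wild-type, and 6 of them were lower by any amount. Itga2b, named after its values were seen, went the other way and averaged under 1 RPKM. It was at 1.01 RPKM in Brpf1-null and 0.234 RPKM in wild-type, 4.31-fold higher (2.58 to 7.53). Of 8 endothelial markers, 6 averaged 1 RPKM or more, 2 lower and 1 higher, with sums of 33.5 RPKM in Brpf1-null and 43.7 RPKM in wild-type. The 6 mast cell and basophil markers summed to 5.0 RPKM in Brpf1-null and 6.79 RPKM in wild-type, 2 of them averaged 1 RPKM or more (1 lower, 1 higher), and Fcer1a and Gzmb were listed at 0 in both libraries and Mcpt8 and Ms4a2 in Brpf1-null alone.

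Of cells outside the LSK definition, all 9 hepatocyte markers were lower, with sums of 421 RPKM in Brpf1-null and 1644 RPKM in wild-type. All 6 B-lineage markers in the table were lower, with sums of 83.0 RPKM in Brpf1-null and 261 RPKM in wild-type. Cd79b and Cd79a are named after their values were seen. Cd79b made up most of the Brpf1-null sum, at 77.8 RPKM in Brpf1-null and 119 RPKM in wild-type. Cd79a, at 0.848 RPKM in Brpf1-null and 50.6 RPKM in wild-type, had the lowest log2 change of the 9380 genes. Of 6 monocyte and macrophage markers, 4 were higher and 2 lower, with sums of 166 RPKM in Brpf1-null and 75.7 RPKM in wild-type. Of 5 T and NK cell markers, 3 averaged 1 RPKM or more, 2 of them higher, and Cd3e was listed at 0 in both libraries. The 5 summed to 62.6 RPKM in Brpf1-null and 41.1 RPKM in wild-type. Kit and Ly6a, which encode the Kit and Sca-1 of the sort, were present in both libraries, as were the progenitor surface genes Cd34 and Flt3. Kit was at 21.3 RPKM in Brpf1-null and 25.6 RPKM in wild-type, Ly6a at 9.51 RPKM in Brpf1-null and 10.6 RPKM in wild-type, Cd34 at 179 RPKM in Brpf1-null and 117 RPKM in wild-type, and Flt3 at 33.1 RPKM in Brpf1-null and 22.9 RPKM in wild-type. Of the 7 LSK and progenitor surface genes, 6 averaged 1 RPKM or more, 1 of them higher (Cd34) and 0 lower past 1.5-fold with the pseudocount. The other 3 of the list, which are used to separate stem cells from progenitors, were all lower as ratios and are named after their values were seen. Slamf1, which encodes the stem cell marker CD150, was at 0.0335 RPKM in Brpf1-null and 0.566 RPKM in wild-type, from about 2 Brpf1-null and 36 wild-type reads, 16.9-fold lower (4.37 to 145), and averaged under 1 RPKM. Procr, which encodes the stem cell marker EPCR, was at 3.68 RPKM in Brpf1-null and 5.54 RPKM in wild-type, 1.505-fold lower (1.202 to 1.88). Cd48, a marker of progenitors, was at 74.7 RPKM in Brpf1-null and 99.4 RPKM in wild-type, 1.33-fold lower (1.25 to 1.42). The part of these other cells in the values of the factors was not tested, and in bulk RNA fewer cells of a type and less RNA per cell cannot be told apart.

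Past 1.5-fold with the pseudocount over all 9380 genes, 1323 were higher and 884 lower in the Brpf1-null library, so that 59.9% of them were higher. With both libraries centred on their medians the split was 44.4% higher (961 higher and 1204 lower), and the median change of all genes was −0.07 rather than 0.04. Relative to that centre, Mecom was at −1.49, Tal1 at −0.66, Gfi1 at −0.63, Gata2 at −0.37, Lmo2 at −0.23, Runx1 at −0.19, Fli1 at −0.11, Cbfb at −0.03 and Lyl1 at 0.10.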

How the data were processed

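RNA of sorted fetal liver LSK cells was sequenced from oligo-dT-primed libraries, per the labels' protocols. Reads were aligned with TopHat to mm9, per the submitters' processing notes; the sources used here do not give the annotation, counting program, strandedness or filters. Per the file headers, the authors deposited RPKM for pair 1 and FPKM for pair 2, with the log2 of the fold change. All 20207 genes had the same values in both tables, which were read as 1 set of values (1 library) per genotype in RPKM. The sources used here do not say which pair they stem from, or whether they merge the reads of both. The deposited fold is a ratio with wild-type on top for all 12624 genes that have one (within 0.001 of the ratio), and was not used further.

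Changes were computed as log2((Brpf1-null + 1)/(wild-type + 1)) with Python 3.11.15, pandas 2.3.3 and numpy 2.4.6, which understates low genes, and shares were counted over the 9380 genes averaging 1 RPKM or more. Library sizes were recovered with GENCODE M21 lengths as the size at which low values of single-length genes came nearest to whole reads: 63.2% of 424 Brpf1-null and 63.3% of 414 wild-type values lay within 0.1 read, against 24.7% and 29.3% with sizes raised by 5%. The sizes were picked for closeness to whole reads on these same values, so the shares are not an independent check. Lengths and promoters are of GRCm38, so mm9 coordinates are not given. Intervals are exact Clopper-Pearson intervals of a gene's read share (scipy 1.17.1). The design planned a limma fit only if the pair tables differed, so no test was made. Genes named are Brpf1, the 10 factors, up to 4 genes per related list with the largest absolute change, and Kit, Ly6a, Cd34 and Flt3; others are marked. The factors and lists were chosen with earlier results of these data known.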

Additional observations from a re-analysis of the deposited data

How the results depend on the processing

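No paired analysis was possible because the tables of both pairs hold the same values, and for the same reason no library could be left out. Of the 10 factors, the number averaging 1 RPKM or more and past 1.5-fold lower was 1 as reported. It was 3 with a pseudocount of 0.1 RPKM, 3 with no pseudocount (chosen after seeing the data), 3 after centring, 3 after removal of the GC trend and 2 after quantile normalization, because Tal1 and Gfi1 lie close to the threshold. It was 0 at a mean of at least 5 RPKM, where Mecom, Tal1, Gfi1, Runx1 and Erg are not kept. The number past 1.5-fold higher was 0 under each of these. Over all genes, 554 were higher and 393 lower with a pseudocount of 5 RPKM, and 793 higher and 483 lower at a mean of at least 5 RPKM, where fewer genes are counted. The median log2 change of the kept factors was −0.12 as reported and ran from −0.24 after removal of the GC trend to −0.00 at a mean of at least 5 RPKM. Of 210 values recomputed in all, 178 kept within the limit set for them and 32 moved past it. The limit was counting error, a log2 difference of 0.2 for the median of a related list, or 1.5 times for a count. A change of filter leaves the log2 change of each gene as it was, so those values could not move. Among the factors a change of sign was looked for only at Mecom, the 1 past 1.5-fold as reported, which stayed lower. A change of pseudocount cannot turn a sign. Cbfb ran from −0.03 to 0.26 and Fli1 from −0.11 to 0.12, on both sides of 0. The ratios of Tal1 to Lyl1 and Runx1 to Cbfb kept within counting error after quantile normalization, and that of Erg to Fli1 was not recomputed because Erg is not kept. The depth limits Erg most.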
